A study of Mus musculus with 12 samples.

Results

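The genes of the extracellular matrix and of its remodelling enzymes were examined in mouse liver. Members were taken by symbol from the deposited table: collagen chains, laminin chains, nidogens, perlecan, fibronectin, fibrillins, fibulins, small leucine-rich proteoglycans, periostin, Sparc, lysyl oxidases, matrix metalloproteinases (Mmp), their tissue inhibitors (Timp) and the Adamts and Adamts-like proteins. Mmp12 was left out by the rule. The rule matched names and no measured values, and it found 63 of the 11791 genes in the table. The set itself was chosen with earlier results of these data known, so counts of its calls are not an independent test. The members fell into 8 fibrillar collagen chains, 16 basement membrane genes, 7 other collagen chains, 8 glycoproteins and proteoglycans, 4 crosslinking enzymes, 6 metalloproteinases, 3 inhibitors and 11 Adamts proteins. Of 123 protein-coding genes in GENCODE vM21 whose symbols meet the rule, 63 are in the table, and the others (among them Lox, Mmp8 and Mmp9) are not analysed here. Every gene of the table reached a signal of 1 in at least 4 libraries, and 58 members did so in all 12. Only 1 member, Loxl4, did so in fewer than 4 libraries outside KO, and its calls are included in the counts below.

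The livers came from male mice aged 10 weeks. All ate the MCD diet, which lacks methionine and choline and produces steatohepatitis, during 3 weeks. All groups carried Lyzs cre, a Cre recombinase driven by the lysozyme locus in myeloid cells, and all had the strain label C57BL/6. The control group carried Lyzs cre alone, the group called KO here had the genotype label Lyzs cre p38g/d (kinases p38γ and p38δ), and mice of the anti-Ly6G group, also with Lyzs cre, were treated with an antibody against Ly6G, a neutrophil surface protein. Sample titles of the anti-Ly6G group read GR1 where the source names read Ly6G. Each library was a pool of RNA from 2 animals, with 4 pools per group, whereas the protocol counts 12 males for each genotype, more than 4 such pools hold. By a label for mitochondrial origin, KO 1, KO 2 and every control pool were C57, whereas KO 3, KO 4 and every anti-Ly6G pool were NZB. The protocol text describes conplastic lines, made by 10 generations of backcrossing, in which nuclear and mitochondrial genomes come from different strains. In a comparison of anti-Ly6G with control, antibody and mitochondria label therefore cannot be told apart without the KO pools. The p-values below measure the spread between pools of a group, and the labels do not say whether each animal entered only 1 pool.

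The extracellular matrix of the liver consists of fibrillar collagens, which form the load-bearing scar in fibrosis, and of a thin basement membrane-like layer along sinusoids, vessels and bile ducts. Activated stellate cells and portal fibroblasts secrete most fibrillar collagen, while endothelial cells and hepatocytes add basement membrane chains and plasma fibronectin. Lysyl oxidases crosslink the fibres, metalloproteinases and Adamts proteases cleave them or trim their precursors, and Timps inhibit those proteases.

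Each pool held 13.1 to 22.3 M recovered reads, at which 3 reads correspond to a signal of 0.125 to 0.242. These limits cover counting error only. Pools of the same group correlated at 0.977 to 0.991 across genes on the log2 scale. On the first principal component, which held 46.8% of the variance, the anti-Ly6G pools (31.2 to 36.2) stood apart from the others (-20.7 to -12.1). Mapk12, the gene of p38γ, had a signal of 2.08, 1.75, 2.14 and 2.71 in control pools 1 to 4 and of 1.63, 1.79, 2.70 and 3.06 in KO pools 1 to 4 (log2 0.05, adjusted p = 0.922), so that its level in whole liver did not check the KO labels. Mapk13 is not analysed here. In bulk tissue, fewer cells of a type and less RNA per cell cannot be told apart.

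Throughout, a level is the deposited signal, in RPM (reads relative to sequencing depth, as the authors scaled them). A fold change is a difference of log2(signal + 0.5) between group means, given ± its standard error, with a limma p adjusted over all 11791 genes and a threshold of 0.05. Matrix genes were lower in the anti-Ly6G livers. Against control, 34 members fell, where 15.3% of all genes did, and 4 rose, where 15.1% of all genes did. The median log2 fold change of the 63 members was -0.50, against 0.00 over all genes. In 29 members every anti-Ly6G pool lay below every control pool (13.1% of all genes), and in 4 every pool lay above (14.2% of all genes). The largest falls were in Col1a1, Col1a2, Col3a1, Col4a2 and Mmp13, the 5 members that fell by at least 2-fold. The 4 members that rose were Col11a2, Lamb3, Mmp15 and Adamts10.

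The KO livers differed less from control. There, 2 members rose, where 0.585% of all genes did, and none fell, where 0.534% of all genes did. The 2 were Col6a3, a chain of the microfibrillar collagen VI, and Adamts2, the protease that removes the amino-terminal propeptide of fibrillar procollagens. Over all members the median log2 fold change was 0.26, and 50 of 63 fitted values were above 0, against 49.6% of all genes. At an unadjusted p under 0.05, 24 members were higher (9.42% of all genes) and 27 differed in either direction (18.9% of all genes). In 12 members every KO pool lay above every control pool (5.73% of all genes), and in 1, Fn1, every KO pool lay below (6.62% of all genes). The edgeR test on whole reads also called 2 members and DESeq2 called 14. Over all genes, edgeR called 76 higher and 77 lower and DESeq2 268 and 309, against 69 and 63 in the main fit.

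KO against anti-Ly6G gave the largest set of calls. Of the members, 40 were higher in KO, where 13.6% of all genes were, and 1, Adamts7, was lower, where 13.1% of all genes were. The median log2 difference was 0.70. Pools did not overlap in 37 members with KO above (13.8% of all genes) and in 1 with KO below (13.5% of all genes). Taking both directions together, 1.12% of all genes passed in KO against control, 30.4% in anti-Ly6G against control and 26.8% between KO and anti-Ly6G. At an unadjusted p under 0.05, 43 members differed between anti-Ly6G and control and 5 of them were higher (42.3% and 21.0% of all genes), and 45 differed between KO and anti-Ly6G with 43 higher in KO (39.6% and 19.6% of all genes). Fitted values above 0 made up 49.8% of all genes in the former and 48.2% in the latter, against 9 and 52 of the 63 members. Each pair of these comparisons shares 4 pools, so their calls are not independent. With libraries rescaled to equal totals, the share of all calls that were higher moved from 52.3% to 76.9% in KO against control, from 49.6% to 39.1% in anti-Ly6G against control and from 50.9% to 76.9% in KO against anti-Ly6G.

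**Figure D1:**
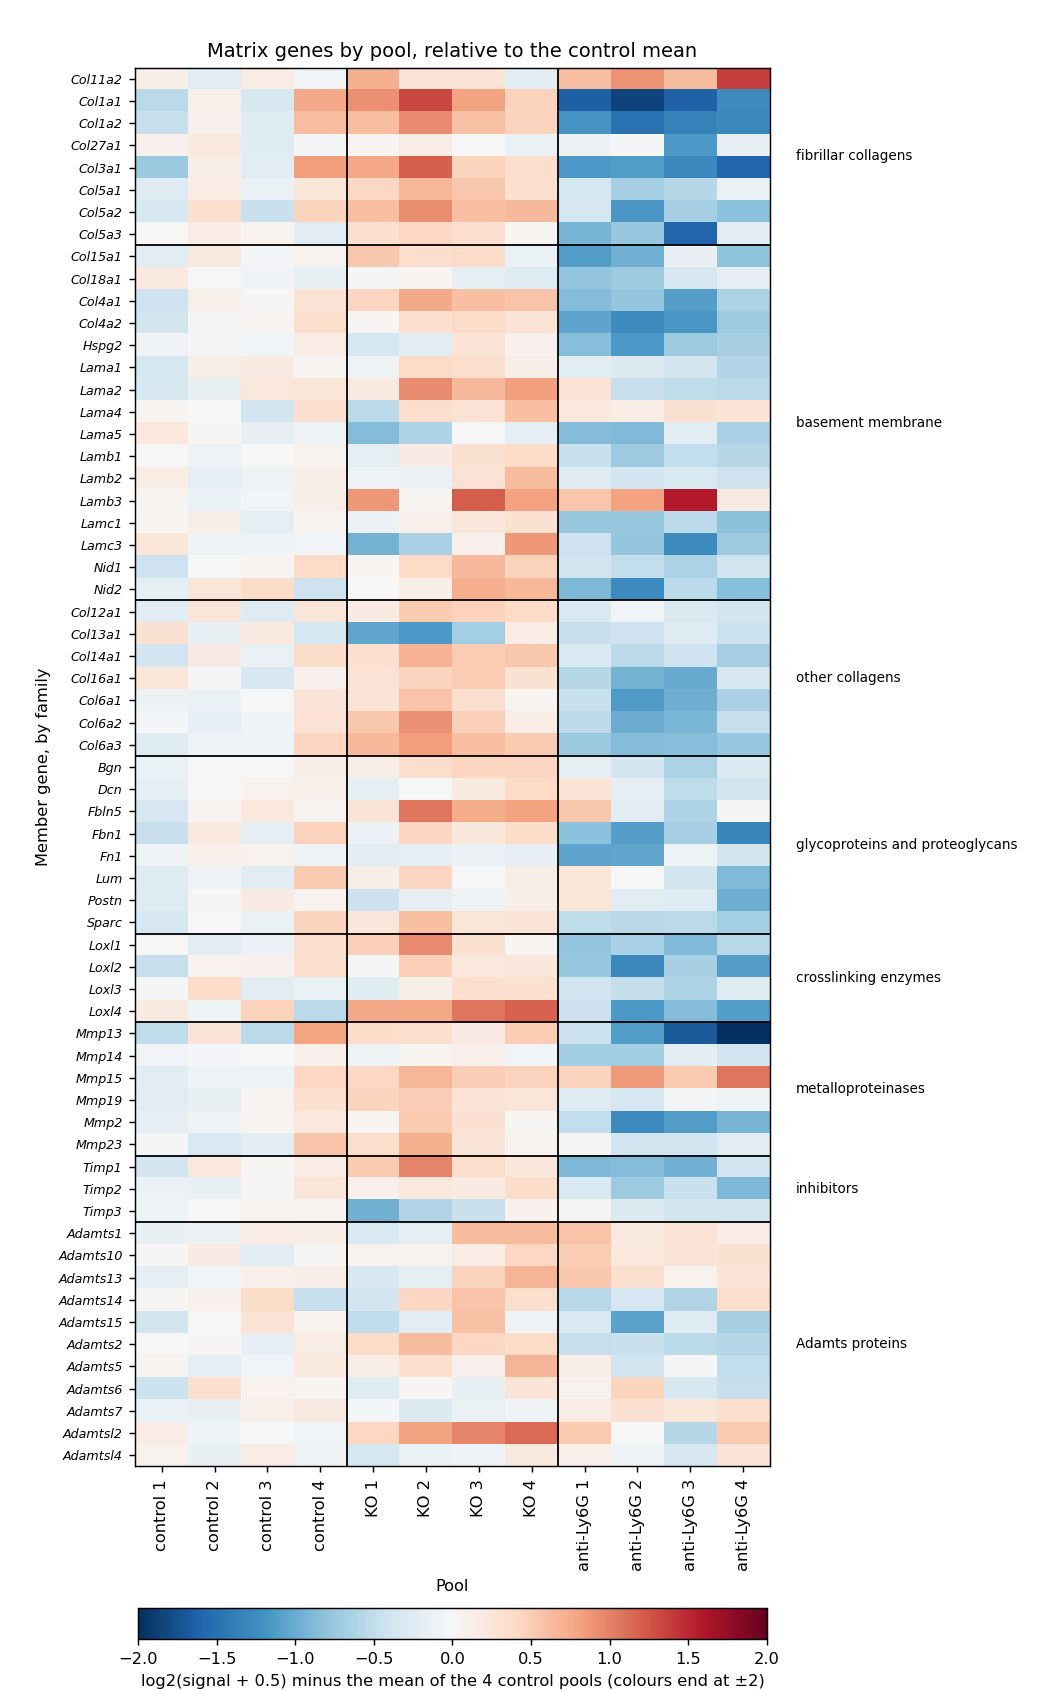
Heat map of the 63 members (vertical axis, by family) in the 12 pools (horizontal axis). Colour gives log2(signal + 0.5) minus the mean of the 4 control pools, red for higher and blue for lower, ending at ±2. The anti-Ly6G columns are mostly blue in the collagens, basement membrane and crosslinking genes, and the fibrillar collagens of the KO columns are mostly red.

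In 43 of the 63 members the group means ran from KO through control down to anti-Ly6G, an order held by 18.8% of all genes. In 6 members no pool broke that order: Adamts2, Bgn, Col16a1, Col4a1, Col6a3 and Timp1. Such complete separation was found in 0.28% of all genes. A further reading counted genes that were both lower in anti-Ly6G than in control and higher in KO than in anti-Ly6G. It held 32 members and 9.34% of all genes. Fn1 and Lama5 passed only the former test, and Adamtsl2, Col12a1, Fbln5, Lama1, Lama2, Lamb2, Loxl3 and Mmp19 only the latter. No comparison passed for 16 members, among them Dcn, Lum, Postn, Timp3 and 7 of the 11 Adamts proteins.

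The calls differed in how far they depended on single libraries and on the mitochondria label. Of the 38 calls in anti-Ly6G against control, 31 passed whichever library was left out. With the mitochondria label as a covariate, where the size of the label's effect comes from the KO pools alone, 7 of the 38 passed (Col11a2, Col4a2, Hspg2, Lama5, Lamb1, Lamc1 and Nid2), and 31 did not, though none changed sign. Calls over all genes also dropped with the covariate, from 1775 higher and 1805 lower to 517 and 456. Of the 41 calls in KO against anti-Ly6G, 35 passed whichever library was left out and 39 passed with the covariate. Over all genes, the covariate took that comparison from 1608 higher and 1549 lower to 1246 and 1128. In KO against control it took all genes from 69 higher and 63 lower to 25 and 54. Both calls of KO against control were lost with the covariate, and leaving out 1 library lost that of Col6a3 in 6 of 12 fits and that of Adamts2 in 9 of 12.

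**Figure D2:**
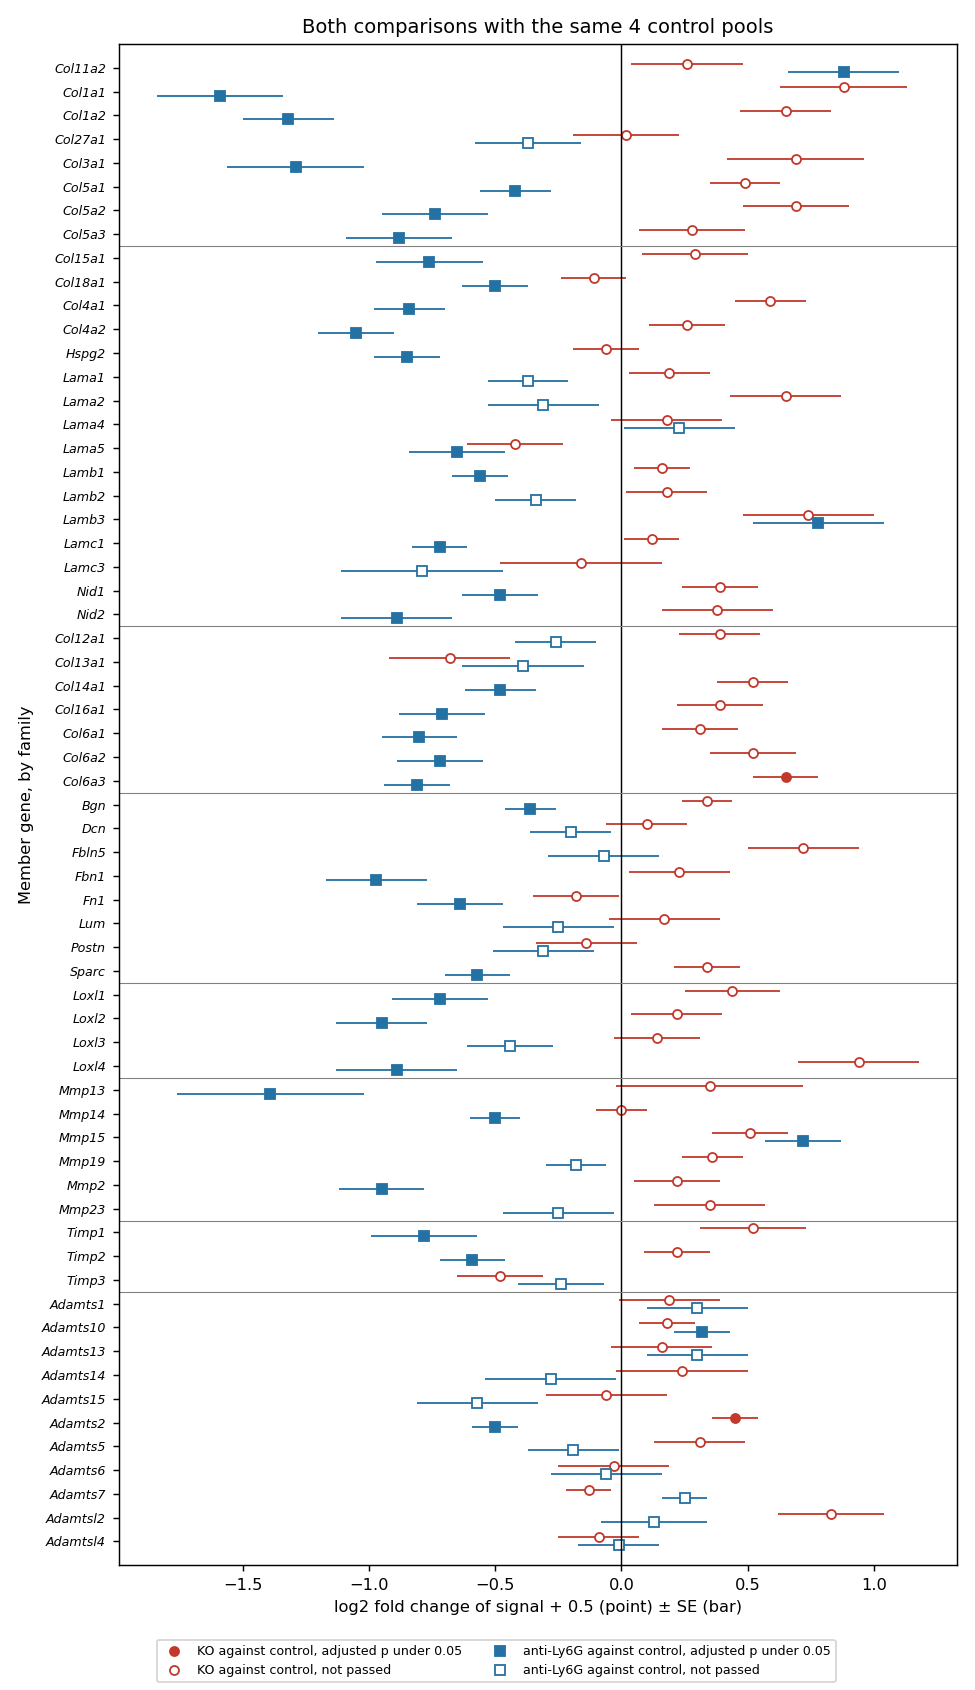
Fold changes of the 63 members (vertical axis, by family) in KO against control (red circles) and anti-Ly6G against control (blue squares), as log2 of signal + 0.5, with bars for ± SE. Filled symbols have an adjusted p under 0.05. Both comparisons use the same 4 control pools. Filled blue squares lie left of 0 in 34 members and filled red circles lie right of 0 in 2.

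Fibrillar collagens form the banded fibres of scar tissue. Of the 8 chains measured, 6 fell (15.3% of all genes) and 1 rose (15.1% of all genes) in anti-Ly6G against control (median log2 -0.81). KO exceeded anti-Ly6G in 6 (median 1.29), where 13.6% of all genes passed in that direction. None passed in KO against control, where 1.12% of all genes did. All 8 fitted values there were above 0, against 49.6% of all genes (median 0.57, adjusted p from 0.0903 to 0.970). Col1a1, a chain of collagen I, the main protein of scar, had the largest fall of all members.

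Col1a1, which encodes the α1 chain of collagen I (chr11:94936224-94953042, plus strand), had a signal of 12.5, 19.9, 14.7 and 31.4 in the control pools 1 to 4, 35.0, 47.4, 32.7 and 25.7 in the KO pools 1 to 4 and 5.63, 4.76, 5.68 and 7.44 in anti-Ly6G pools 1 to 4. All anti-Ly6G pools lay below all control pools, and all KO pools but KO 4 lay above all control pools, with control 4 within the KO range. The fall in anti-Ly6G was log2 -1.59 ± 0.25, adjusted p = 0.000531, a 3.01-fold lower level, and KO exceeded anti-Ly6G by log2 2.47 ± 0.25, adjusted p = 2.67e-05, or 5.53-fold. Against control, KO gave log2 0.88 ± 0.25, adjusted p = 0.0903. Its partner chain Col1a2 (chr6:4504814-4541544, plus strand) stood at 21.4, 31.6, 25.1 and 46.0 in the control pools, 45.7, 58.0, 45.1 and 40.6 in the KO pools and 12.8, 10.3, 11.4 and 11.9 in anti-Ly6G pools. Col1a2 fell in anti-Ly6G (log2 -1.32 ± 0.18, adjusted p = 0.000253) with no overlap of pools, and KO against control gave log2 0.65 ± 0.18, adjusted p = 0.093. Col3a1 (chr1:45311538-45349706, plus strand), the single chain of collagen III, which is laid down early in scars, was at 31.5, 58.3, 45.9 and 94.9 in the control pools, 91.5, 122.1, 72.5 and 68.3 in the KO pools and 23.8, 24.2, 21.4 and 17.4 in anti-Ly6G pools. Its fall in anti-Ly6G was log2 -1.29 ± 0.27, adjusted p = 0.00332, and KO against control gave log2 0.69 ± 0.27, adjusted p = 0.189. In all 3 genes control 1 was the lowest and control 4 the highest control pool. Without control pool 4 all 3 rose in KO against control (Col1a1 log2 1.13, Col1a2 0.86, Col3a1 0.97). With the mitochondria covariate the anti-Ly6G values were -1.11 for Col1a1 (adjusted p = 0.107), -1.06 for Col1a2 (0.0567) and -0.70 for Col3a1 (0.318).

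Collagen V chains regulate the diameter of collagen I fibrils. Col5a1 was at 7.94, 10.7, 8.67 and 11.4 in the control pools, 13, 15.5, 14.2 and 12.2 in the KO pools and 7.40, 5.88, 6.30 and 8.73 in anti-Ly6G pools. A fall in anti-Ly6G (log2 -0.42 ± 0.14, adjusted p = 0.0321) was called although anti-Ly6G 4 overlapped control, and all KO pools lay above all control pools (log2 0.49 ± 0.14, adjusted p = 0.0903). Col5a2 was at 4.22, 6.86, 3.80 and 7.47 in the control pools, 8.38, 10.7, 8.41 and 8.66 in the KO pools and 4.17, 2.13, 3.20 and 2.83 in anti-Ly6G pools. Its fall in anti-Ly6G was log2 -0.74 ± 0.21, adjusted p = 0.0174, and all KO pools again lay above control (log2 0.69 ± 0.21, adjusted p = 0.113). Both falls depended on single libraries. Col5a1 did not pass when control 2 or 4 or anti-Ly6G 2 or 3 was left out (log2 -0.37, -0.35, -0.35 and -0.38), nor did Col5a2 without control 2, control 4 or anti-Ly6G 2 (log2 -0.64, -0.60 and -0.61). The remaining chain, Col5a3, fell (log2 -0.88 ± 0.21, adjusted p = 0.0075) and had a mean of 16.7 ± 1.90 in the control pools, 20.3 ± 2.30 in the KO pools and 9.35 ± 3.70 in anti-Ly6G pools (SD, n = 4).

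The other fibrillar members were low. Col11a2, best known from cartilage, was the one fibrillar chain that rose in anti-Ly6G, from 1.19 ± 0.192 in control to 2.68 ± 0.843 (SD, n = 4), log2 0.88 ± 0.22, adjusted p = 0.00887, with every pool above every control pool. It also passed with the mitochondria covariate (log2 1.34, adjusted p = 0.0409). Col27a1 passed in no comparison and lay between 1.91 and 5.61 in all pools.

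Promoter windows of 250 bases before the RefSeq start (GRCm38.p6) were read for the 41 members that have one in the reference tables. The motifs searched on both strands were the TATA box (TATAAA), the CCAAT box (CCAAT), the AP-1 site (TGANTCA, N being any base) and the Sp1 box (GGGCGG), none of which contains another. CCAAT was found in 11 of 25 windows of members that fell in anti-Ly6G (44.0%) and in 1 of the 16 others (6.25%), against 37.5% of all 27025 genes with a window. TATAAA was in 2 of the 25 (8%), 5 of the 16 (31.2%) and 14.3% of all genes. TGANTCA was in 2 of the 25 (8%), in 0 of the 16 and in 7.82% of all genes, and GGGCGG was in 18 (72.0%), 9 (56.2%) and 35.4%. These are descriptions of letters in a window and no test was made of them. The windows of 2 fibrillar chains that fell are shown 5′ to 3′ on the gene's strand because they hold different motifs: Col3a1 (chr1:45311288-45311537, plus strand) has TATAAA 117 bases before the start, and Col5a3 (chr9:20815068-20815317, minus strand) has CCAAT 122 bases before it. Capitals mark the first 3 of these motifs in either orientation.
Col3a1: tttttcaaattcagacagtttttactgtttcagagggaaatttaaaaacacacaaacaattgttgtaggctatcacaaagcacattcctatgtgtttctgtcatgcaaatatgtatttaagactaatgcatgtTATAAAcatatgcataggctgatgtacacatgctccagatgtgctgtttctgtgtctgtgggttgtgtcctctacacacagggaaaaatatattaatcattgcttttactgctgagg
Col5a3: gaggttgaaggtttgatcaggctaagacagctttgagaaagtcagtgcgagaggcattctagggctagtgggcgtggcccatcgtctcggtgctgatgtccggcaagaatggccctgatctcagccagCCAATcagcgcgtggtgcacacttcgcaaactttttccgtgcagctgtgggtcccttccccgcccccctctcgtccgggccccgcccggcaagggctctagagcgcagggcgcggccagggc
Of the sequence, 35.2% was G or C in the Col3a1 window and 62.8% in the Col5a3 window.

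**Figure D3:**
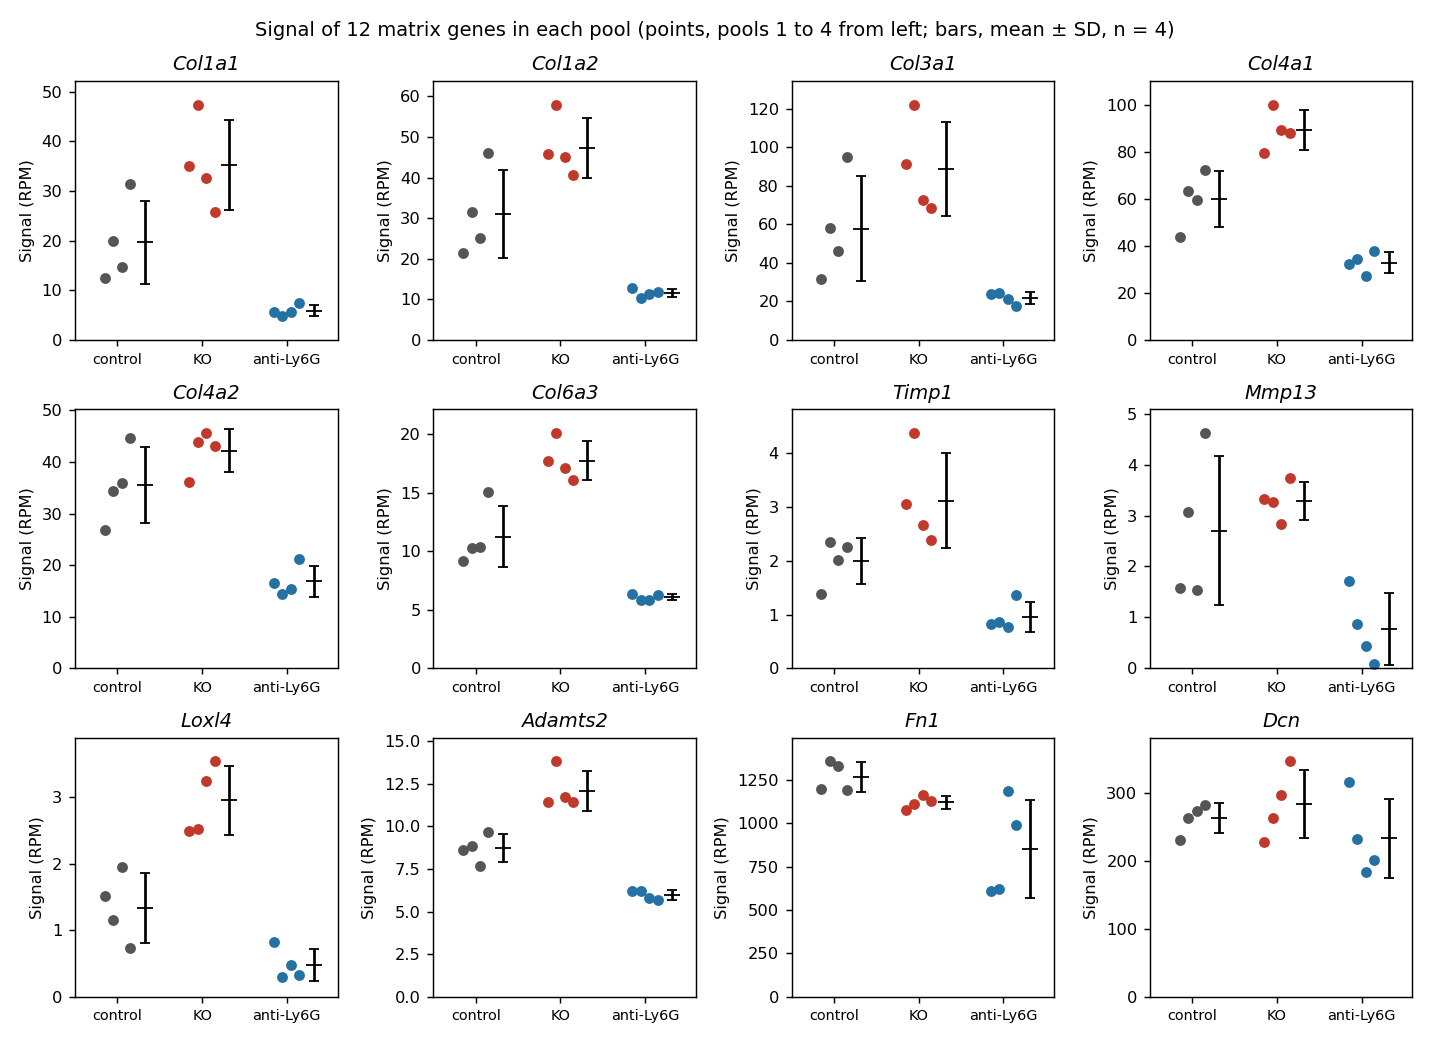
Signal (vertical axis, RPM, starting at 0) of 12 members in each pool (points, pools 1 to 4 from left), by group, with black bars for the mean ± SD (n = 4). All anti-Ly6G pools lie below all control pools for Col1a1, Col1a2, Col3a1, Col4a1, Col4a2, Col6a3, Timp1, Adamts2 and Fn1, and the groups overlap for Dcn.

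Basement membranes are sheets of collagen IV and laminin, bridged by nidogen and perlecan. Of 16 members of this kind, 10 fell (15.3% of all genes) and 1 rose (15.1% of all genes) in anti-Ly6G against control (median log2 -0.61). KO exceeded anti-Ly6G in 12 (median 0.76), where 13.6% of all genes passed in that direction. None passed in KO against control (median 0.18), where 1.12% of all genes did. Col4a2 had the largest fall. Its partner Col4a1 (chr8:11198423-11312826, minus strand) was at 43.9, 63.4, 59.6 and 72.3 in the control pools, 79.6, 100.1, 89.2 and 87.9 in the KO pools and 32.2, 34.3, 27.3 and 37.7 in anti-Ly6G pools. KO, control and anti-Ly6G pools formed 3 ranges without overlap, with log2 -0.84 ± 0.14, adjusted p = 0.000746 in anti-Ly6G against control and log2 0.59 ± 0.14, adjusted p = 0.0563 in KO against control. Col4a2 (chr8:11312805-11449287, plus strand), which shares a promoter region with Col4a1 on the opposite strand, was at 26.9, 34.4, 36.0 and 44.7 in the control pools, 36.1, 43.9, 45.6 and 43.0 in the KO pools and 16.5, 14.4, 15.3 and 21.2 in anti-Ly6G pools. Its anti-Ly6G pools lay below all control pools (log2 -1.05 ± 0.15, adjusted p = 0.000252), and the fall passed also with the mitochondria covariate (log2 -1.2). KO and control pools of Col4a2 overlapped (log2 0.26 ± 0.15, adjusted p = 0.35). The RefSeq starts of the 2 genes are 21 bases apart, and the sources used here do not say whether reads were assigned by strand.

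Collagens XV and XVIII are proteoglycan-like collagens of basement membrane zones, and the end fragment of XVIII is endostatin. Col18a1, which hepatocytes express, had the second highest level per transcript length of all members (148.0 per kb in control, after Fn1 at 152.5). Its signal was 948.3, 832.6, 788.7 and 743.1 in the control pools, 812.5, 845.5, 724.0 and 686.0 in the KO pools and 475.0, 502.7, 653.3 and 734.0 in anti-Ly6G pools. It fell in anti-Ly6G (log2 -0.50 ± 0.13, adjusted p = 0.0122), where all pools lay below all control pools. Of these only anti-Ly6G 4, at 734.0, was close to the lowest control pool, control 4 at 743.1. KO exceeded anti-Ly6G by log2 0.39 ± 0.13, adjusted p = 0.0428, with overlapping pools. That difference did not pass without control 2 or 3 (log2 0.39 and 0.39), KO 1, 2 or 3 (0.36, 0.35 and 0.42) or anti-Ly6G 1 or 2 (0.30 and 0.32). Col15a1 was far lower, at 2.58, 3.51, 2.97 and 3.24 in the control pools, 4.65, 4.06, 4.16 and 2.73 in the KO pools and 1.14, 1.32, 2.72 and 1.54 in anti-Ly6G pools, and fell in anti-Ly6G (log2 -0.76 ± 0.21, adjusted p = 0.015) with anti-Ly6G 3 inside the control range.

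Laminins are trimers of an α, a β and a γ chain. The β1 and γ1 chains fell together. Lamb1 was at 15.9, 14.7, 15.9 and 16.6 in the control pools, 13.9, 17.7, 19.6 and 20.6 in the KO pools and 11.4, 9.33, 11 and 10.5 in anti-Ly6G pools, and Lamc1 was at 21.7, 22.8, 18.4 and 21.7 in the control pools, 19.3, 22.6, 24.7 and 26.2 in the KO pools and 12.3, 12.2, 14.5 and 11.7 in anti-Ly6G pools. Every anti-Ly6G pool lay below every control pool for both (log2 -0.56 ± 0.11, adjusted p = 0.00247 for Lamb1 and log2 -0.72 ± 0.11, adjusted p = 0.000368 for Lamc1). Both passed under the mitochondria covariate (log2 -0.91 and -1.0), and neither differed between KO and control beyond the threshold (log2 0.16 ± 0.11, adjusted p = 0.445 and log2 0.12 ± 0.11, adjusted p = 0.555).

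The α chains were low and less uniform. Lama2, the α2 chain of muscle and mesenchyme, was at 2.08, 2.40, 3.21 and 3.30 in the control pools, 3.12, 5.70, 4.54 and 5.17 in the KO pools and 3.41, 1.82, 1.76 and 1.70 in anti-Ly6G pools. It passed in KO against anti-Ly6G (log2 0.95 ± 0.22, adjusted p = 0.00658), where anti-Ly6G 1 overlapped the KO range. Neither anti-Ly6G (log2 -0.31 ± 0.22, adjusted p = 0.31) nor KO (log2 0.65 ± 0.22, adjusted p = 0.144) passed against control. Lama5 fell in anti-Ly6G (log2 -0.65 ± 0.19, adjusted p = 0.0208), from 7.13 ± 0.842 to 4.41 ± 1.12 (SD, n = 4). The call was lost without control 1, anti-Ly6G 1 or anti-Ly6G 2 (log2 -0.59, -0.58 and -0.58). Lama1 and Lamb2 were higher in KO than in anti-Ly6G (log2 0.56 ± 0.16, adjusted p = 0.0172 and log2 0.51 ± 0.16, adjusted p = 0.0289). Lama1 did not pass without KO 2 or KO 3 (log2 0.49 and 0.51), nor Lamb2 without KO 3, KO 4, anti-Ly6G 2 or anti-Ly6G 4 (0.48, 0.36, 0.50 and 0.49). Lama4 and Lamc3 passed in no comparison, and Lamc3 ranged from 1.02 to 4.83 within the KO group.

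Lamb3, the epithelial β3 chain of laminin-332, was the exception among the laminins. It was at 16.1, 14.1, 15 and 17.1 in the control pools, 28.8, 16.2, 36.6 and 27.5 in the KO pools and 23.1, 27.4, 47.6 and 17.7 in anti-Ly6G pools. Every anti-Ly6G pool lay above every control pool (log2 0.78 ± 0.26, adjusted p = 0.0372), and the KO pools overlapped the anti-Ly6G pools (log2 -0.04 ± 0.26, adjusted p = 0.917), with log2 0.74 ± 0.26, adjusted p = 0.159 against control. The rise in anti-Ly6G leaned on anti-Ly6G 3. Without that pool it was 0.51, and it also missed the threshold without control 1, 2, 3 or 4 (log2 0.80, 0.74, 0.77 and 0.83), without anti-Ly6G 2 (0.78) and with the mitochondria covariate (0.24).

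The linkers of the sheet also fell. Hspg2, which encodes perlecan, was at 23.8, 24.5, 24.2 and 27.8 in the control pools, 19.4, 21.5, 30.2 and 26.5 in the KO pools and 13.7, 11, 14.9 and 15.6 in anti-Ly6G pools. It fell in anti-Ly6G with no overlap (log2 -0.85 ± 0.13, adjusted p = 0.000656) and kept its call with the mitochondria covariate (log2 -1.31). Nid1, nidogen-1, was at 19.1, 25.5, 26.8 and 33.6 in the control pools, 26.4, 34.1, 40.7 and 35.5 in the KO pools and 19.6, 18.1, 16.5 and 19.4 in anti-Ly6G pools. Its fall was log2 -0.48 ± 0.15, adjusted p = 0.0312, with control 1 inside the anti-Ly6G range, and was lost without control 2, 3 or 4 (log2 -0.48, -0.46 and -0.35) or anti-Ly6G 2 or 3 (-0.47 and -0.43). Nid2 fell further (log2 -0.89 ± 0.22, adjusted p = 0.00772), to 3.11 ± 0.727 from 6.25 ± 1.70 in control (SD, n = 4).

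The other collagens include the microfibrillar collagen VI and chains that decorate fibrils. Of these 7, 5 fell in anti-Ly6G against control (median log2 -0.71), where 15.3% of all genes did. KO exceeded anti-Ly6G in 6 (median 1.1), where 13.6% of all genes passed in that direction. In KO against control 1 rose (median 0.39), where 0.585% of all genes did. That gene was Col6a3 (chr1:90765923-90843971, minus strand), the α3 chain of collagen VI, at 9.20, 10.3, 10.4 and 15.1 in the control pools, 17.7, 20.1, 17.1 and 16.1 in the KO pools and 6.39, 5.83, 5.87 and 6.30 in anti-Ly6G pools. The 3 groups formed ranges without overlap, with log2 0.65 ± 0.13, adjusted p = 0.0345 in KO against control and log2 -0.81 ± 0.13, adjusted p = 0.00064 in anti-Ly6G against control. The rise in KO, 1.57-fold, did not pass without control 1, 2 or 3 (log2 0.57, 0.62 and 0.62) or without KO 1, 2 or 3 (0.65, 0.59 and 0.67). With KO pools 1 and 2 alone, whose mitochondria label is that of the controls, it was 0.74 with an adjusted p of 0.0824.

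Its partner chains moved the same way in anti-Ly6G. Col6a1 was at 14.6, 14.4, 15.9 and 19.2 in the control pools, 19.4, 24.0, 20.0 and 16.6 in the KO pools and 11.5, 6.99, 7.82 and 9.94 in anti-Ly6G pools. Col6a2 was at 6.74, 5.96, 6.41 and 8.46 in the control pools, 10.2, 13.3, 9.69 and 7.61 in the KO pools and 4.62, 3.19, 3.39 and 4.85 in anti-Ly6G pools. Both fell with no overlap (log2 -0.80 ± 0.15, adjusted p = 0.00192 and log2 -0.72 ± 0.17, adjusted p = 0.00711), and KO against control did not pass for either (log2 0.31 ± 0.15, adjusted p = 0.292 and log2 0.52 ± 0.17, adjusted p = 0.136).

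Collagens XIV and XVI associate with fibrils. Col14a1 was at 32.3, 47.4, 38.5 and 55.0 in the control pools, 53.5, 69.3, 60.3 and 61.9 in the KO pools and 34.4, 28.9, 31.6 and 26.5 in anti-Ly6G pools. It fell in anti-Ly6G (log2 -0.48 ± 0.14, adjusted p = 0.0202) with overlap at control 1, a call lost without control 2, control 4 or anti-Ly6G 4 (log2 -0.43, -0.36 and -0.42). Col16a1 was at 5.17, 4.21, 3.33 and 4.56 in the control pools, 5.31, 6.01, 6.28 and 5.41 in the KO pools and 2.72, 1.98, 1.86 and 3.31 in anti-Ly6G pools. Its 3 groups did not overlap, although only the fall in anti-Ly6G passed among the comparisons with control (log2 -0.71 ± 0.17, adjusted p = 0.00624). Col12a1, a low-level chain, exceeded its anti-Ly6G level in KO (log2 0.64 ± 0.16, adjusted p = 0.0102). Col13a1, a transmembrane collagen, passed nowhere and had its lowest values, 3.32 and 3.01, in KO pools 1 and 2.

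Among the glycoproteins and proteoglycans, 4 of 8 fell in anti-Ly6G against control (median log2 -0.34), where 15.3% of all genes did. KO exceeded anti-Ly6G in 4 (median 0.58), where 13.6% of all genes passed in that direction. None passed in KO against control (median 0.20), where 1.12% of all genes did. Fn1, fibronectin, which hepatocytes secrete into plasma, held 35.8% of the summed signal of all members. Its signal was 1195.2, 1354.7, 1328.2 and 1192.4 in the control pools, 1077.5, 1110.6, 1162.5 and 1127.3 in the KO pools and 610.9, 617.9, 1182.6 and 986.3 in anti-Ly6G pools. The anti-Ly6G pools fell into 2 low values and 2 higher ones, of which anti-Ly6G 3 at 1182.6 was just below the lowest control pool at 1192.4 (log2 -0.64 ± 0.17, adjusted p = 0.0148). Every KO pool also lay below every control pool, without passing the test (log2 -0.18 ± 0.17, adjusted p = 0.621).

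Bgn and Dcn encode biglycan and decorin, the small proteoglycans that bind collagen fibrils. Bgn was at 114.3, 123.8, 125.4 and 136.5 in the control pools, 136.6, 160.1, 167.6 and 168.7 in the KO pools and 110.5, 96.7, 80.3 and 102.6 in anti-Ly6G pools. It separated the 3 groups completely, with log2 -0.36 ± 0.10, adjusted p = 0.015 in anti-Ly6G and log2 0.34 ± 0.10, adjusted p = 0.104 in KO against control. Dcn was at 230.9, 263.2, 273.1 and 281.7 in the control pools, 227.5, 262.9, 296.2 and 345.7 in the KO pools and 315.1, 232.0, 182.9 and 200.8 in anti-Ly6G pools. Dcn passed in no comparison (log2 -0.20 ± 0.16, adjusted p = 0.35 in anti-Ly6G against control), and anti-Ly6G 1 was higher than every control pool. Lum, lumican, was at 14.4, 16.4, 14.7 and 25 in the control pools, 18.7, 23.3, 17.2 and 18.9 in the KO pools and 20.5, 17.3, 13.2 and 9.05 in anti-Ly6G pools, with overlapping groups throughout (log2 -0.25 ± 0.22, adjusted p = 0.413). The 3 small proteoglycans therefore gave 1 call in anti-Ly6G against control, in Bgn.

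Sparc, a collagen-binding matricellular protein, was at 46.1, 58.0, 52.3 and 78.2 in the control pools, 67.7, 88.0, 68.0 and 69.0 in the KO pools and 40.3, 39.1, 39.4 and 35.9 in anti-Ly6G pools. Sparc fell in anti-Ly6G, and all 4 pools lay below control (log2 -0.57 ± 0.13, adjusted p = 0.00692). Fbn1, fibrillin-1 of elastic microfibrils, was at 4.29, 7.06, 5.23 and 8.59 in the control pools, 5.57, 8.39, 7.24 and 8.04 in the KO pools and 3.22, 2.58, 3.67 and 2.18 in anti-Ly6G pools, and fell in anti-Ly6G with no overlap (log2 -0.97 ± 0.20, adjusted p = 0.00344). Of its annotated 25-mers 80.0% occur in no other gene, so part of its reads may be shared. Fbln5, which ties elastic fibres to cells, was at 5.42, 7.26, 8.14 and 7.20 in the control pools, 8.43, 15.1, 11.9 and 12.5 in the KO pools and 10.3, 5.88, 4.34 and 7.03 in anti-Ly6G pools. Every KO pool was above every control pool for Fbln5 (log2 0.72 ± 0.22, adjusted p = 0.115), and KO exceeded anti-Ly6G (log2 0.79 ± 0.22, adjusted p = 0.0185) except without KO 2 or anti-Ly6G 2 (log2 0.67 and 0.74). Postn, periostin, passed nowhere and lay between 5.98 and 14.5 in all pools.

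Lysyl oxidase-like enzymes crosslink collagen and elastin. Of 4 members, 3 fell in anti-Ly6G against control (median log2 -0.81), where 15.3% of all genes did. KO exceeded anti-Ly6G in all 4 (median 1.17), where 13.6% of all genes passed in that direction. None passed in KO against control (median 0.33), where 1.12% of all genes did. Loxl1 was at 3.34, 2.81, 3.03 and 4.29 in the control pools, 4.80, 6.91, 4.24 and 3.44 in the KO pools and 1.71, 1.93, 1.57 and 2.10 in anti-Ly6G pools. No anti-Ly6G pool reached the control range, and the fall was log2 -0.72 ± 0.19, adjusted p = 0.0104. Loxl2 was at 4.16, 6.26, 6.30 and 7.53 in the control pools, 5.77, 8.44, 6.95 and 7.03 in the KO pools and 3.29, 2.13, 3.58 and 2.51 in anti-Ly6G pools, and also fell with no overlap (log2 -0.95 ± 0.18, adjusted p = 0.00208), though 53.1% of its 25-mers are unique and its level is uncertain for that reason. Loxl4 was at 1.51, 1.15, 1.96 and 0.727 in the control pools, 2.50, 2.53, 3.25 and 3.54 in the KO pools and 0.822, 0.304, 0.477 and 0.323 in anti-Ly6G pools. These are low levels, the lowest pool holding 4 reads. All KO pools of Loxl4 lay above all control pools (log2 0.94 ± 0.24, adjusted p = 0.0656), and the anti-Ly6G pools were lower (log2 -0.89 ± 0.24, adjusted p = 0.0128) with overlap at control 4. Loxl4 was the member with the largest fitted difference between KO and control. Outside KO it reached a signal of 1 in fewer than 4 libraries, so it is in the table only through its KO pools. Its higher level in KO is therefore not independent of that filter. Loxl3 exceeded its anti-Ly6G level in KO (log2 0.57 ± 0.17, adjusted p = 0.0272), a call lost without KO 2, 3 or 4 (log2 0.58, 0.50 and 0.51) or anti-Ly6G 2 or 3 (0.56 and 0.51).

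Metalloproteinases degrade matrix proteins. Of 6 members, 3 fell and 1 rose in anti-Ly6G against control (median log2 -0.37), 4 were higher in KO than in anti-Ly6G (median 0.57), and none passed in KO against control (median 0.35). Mmp13, the main interstitial collagenase of rodents, was at 1.58, 3.06, 1.54 and 4.62 in the control pools, 3.32, 3.27, 2.83 and 3.73 in the KO pools and 1.71, 0.862, 0.429 and 0.0808 in anti-Ly6G pools. Its anti-Ly6G pools ranged from 0.0808, which is 1 read, to 1.71, so that the fall (log2 -1.39 ± 0.37, adjusted p = 0.0123) rests on few reads. Mmp13 in KO pools was even, between 2.83 and 3.73. Mmp2, gelatinase A, was at 6.11, 6.76, 7.37 and 8.26 in the control pools, 7.30, 10.4, 8.86 and 7.22 in the KO pools and 4.87, 2.64, 3.00 and 3.48 in anti-Ly6G pools. Its anti-Ly6G pools were all below control (log2 -0.95 ± 0.17, adjusted p = 0.00124). Mmp14, the membrane-bound enzyme that activates pro-Mmp2, was the most abundant metalloproteinase, at 68.1, 69.2, 70.1 and 75.9 in the control pools, 66.2, 72.7, 76.2 and 68.1 in the KO pools and 43.7, 43.6, 60.1 and 54.0 in anti-Ly6G pools. KO and control were nearly equal in Mmp14 (log2 0.00 ± 0.10, adjusted p = 0.996), and every anti-Ly6G pool lay below them (log2 -0.50 ± 0.10, adjusted p = 0.00234).

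Mmp15, another membrane-bound enzyme, moved the other way. It was at 13.7, 15, 14.8 and 21.4 in the control pools, 21.5, 25.7, 22.7 and 22.3 in the KO pools and 21.9, 29.2, 23.2 and 34.2 in anti-Ly6G pools, and every anti-Ly6G pool and every KO pool lay above every control pool, although only the former passed (log2 0.72 ± 0.15, adjusted p = 0.00334 and log2 0.51 ± 0.15, adjusted p = 0.102). Mmp19 was at 23.4, 24.6, 28.3 and 34.3 in the control pools, 37.4, 38.5, 33.1 and 32.3 in the KO pools and 22.8, 21.5, 27.0 and 25.4 in anti-Ly6G pools. KO exceeded anti-Ly6G in Mmp19 (log2 0.54 ± 0.12, adjusted p = 0.00436), but with KO pools 3 and 4 alone it was not past the threshold (log2 0.43, adjusted p = 0.0575), and 71.9% of its 25-mers are unique. Mmp23 was at 1.45, 1.1, 1.19 and 2.44 in the control pools, 2.04, 2.74, 1.87 and 1.58 in the KO pools and 1.52, 1.01, 1.0 and 1.21 in anti-Ly6G pools, with no call in any comparison (log2 0.59 ± 0.22, adjusted p = 0.0567 in KO against anti-Ly6G).

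The promoter windows of Mmp13 and Mmp14 are shown because both genes fell in anti-Ly6G while their windows share none of the motifs marked in capitals. In Mmp13 (chr9:7272264-7272513, plus strand) an AP-1 site begins 35 bases and TATAAA 16 bases before the start. In Mmp14 (chr14:54431348-54431597, plus strand) the nearer CCAAT, on the opposite strand, begins 23 bases before it.
Mmp13: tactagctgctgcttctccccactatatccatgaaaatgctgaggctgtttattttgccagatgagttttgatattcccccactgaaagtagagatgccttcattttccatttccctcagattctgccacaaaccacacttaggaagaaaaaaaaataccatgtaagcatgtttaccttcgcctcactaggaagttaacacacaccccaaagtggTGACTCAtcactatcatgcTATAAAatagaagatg
Mmp14: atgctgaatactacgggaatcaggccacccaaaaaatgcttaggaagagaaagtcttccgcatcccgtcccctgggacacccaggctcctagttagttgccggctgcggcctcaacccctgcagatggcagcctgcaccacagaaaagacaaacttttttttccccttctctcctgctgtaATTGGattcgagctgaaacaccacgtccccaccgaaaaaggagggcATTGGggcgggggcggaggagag
G and C made up 40.4% of the Mmp13 window and 55.2% of the Mmp14 window.

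Timps block metalloproteinases. Of 3 measured, 2 fell in anti-Ly6G against control (median log2 -0.59), where 15.3% of all genes did. The same 2 were higher in KO than in anti-Ly6G (median 0.81), where 13.6% of all genes were. None passed in KO against control (median 0.22), where 1.12% of all genes did. Timp1, which is induced in fibrosis, was at 1.39, 2.35, 2.02 and 2.25 in the control pools, 3.06, 4.38, 2.66 and 2.39 in the KO pools and 0.822, 0.862, 0.763 and 1.37 in anti-Ly6G pools. Its groups did not overlap, with log2 -0.78 ± 0.21, adjusted p = 0.0117 in anti-Ly6G and log2 0.52 ± 0.21, adjusted p = 0.194 in KO against control. Timp2 was at 20.5, 20.1, 22.6 and 26.6 in the control pools, 24.1, 26.0, 25.1 and 28.9 in the KO pools and 17.9, 13.3, 16.2 and 11.8 in anti-Ly6G pools. Like Timp1, it fell in anti-Ly6G without overlap (log2 -0.59 ± 0.13, adjusted p = 0.00356). Timp3, which is bound to matrix, was at 26.1, 28.0, 29.0 and 29.1 in the control pools, 14.1, 18.3, 20.4 and 29.7 in the KO pools and 28.6, 23.1, 21.5 and 21.7 in anti-Ly6G pools. Timp3 did not pass in KO against control (log2 -0.48 ± 0.17, adjusted p = 0.153), with KO pools 1 to 3 below and KO 4 above every control pool. In KO pools 1 and 2 alone it was lower than control and past the threshold, as was Col13a1.

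The windows of Timp1 and of the Adamts-like gene Adamtsl2 are shown as a member that fell in anti-Ly6G and one that did not. Timp1 (chrX:20869916-20870165, plus strand, inside the gene Syn1 on the opposite strand and outside its exons) has CCAAT 190 bases before the start. Adamtsl2 (chr2:27079129-27079378, plus strand) has TATAAA 30 bases before it.
Timp1: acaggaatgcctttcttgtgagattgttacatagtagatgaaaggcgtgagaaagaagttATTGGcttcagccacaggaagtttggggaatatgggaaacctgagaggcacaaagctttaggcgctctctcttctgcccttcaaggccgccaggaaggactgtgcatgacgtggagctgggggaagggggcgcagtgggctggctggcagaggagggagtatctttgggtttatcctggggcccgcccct
Adamtsl2: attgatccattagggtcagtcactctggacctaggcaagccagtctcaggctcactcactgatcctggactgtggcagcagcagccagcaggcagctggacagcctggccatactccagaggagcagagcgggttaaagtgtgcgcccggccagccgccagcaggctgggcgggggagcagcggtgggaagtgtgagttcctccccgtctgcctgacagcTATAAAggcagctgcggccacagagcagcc
The share of G and C was 54.4% and 62.8%.

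Adamts proteins are secreted proteases that trim procollagen or cleave proteoglycans, and the Adamts-like proteins lack the protease domain. As a family they did not follow the collagens. In anti-Ly6G against control 1 of 11 rose (9.09%, against 15.1% of all genes) and 1 fell (9.09%, against 15.3%), with a median log2 of -0.01. In KO against anti-Ly6G 2 were higher (18.2%, against 13.6% of all genes) and 1 was lower (9.09%, against 13.1%), with a median of 0.04. In KO against control 1 rose (median 0.18), where 0.585% of all genes did. That gene, Adamts2 (chr11:50602084-50807573, plus strand), was at 8.63, 8.87, 7.66 and 9.65 in the control pools, 11.4, 13.8, 11.7 and 11.4 in the KO pools and 6.20, 6.23, 5.82 and 5.66 in anti-Ly6G pools. Its 3 groups did not overlap, with log2 0.45 ± 0.09, adjusted p = 0.0415 in KO and log2 -0.50 ± 0.09, adjusted p = 0.0019 in anti-Ly6G against control. The rise in KO was lost without control 1, 2 or 3 (log2 0.45, 0.46 and 0.40), without any of KO 1 to 4 (0.48, 0.39, 0.47 and 0.48) and without anti-Ly6G 1 or 2 (0.45 and 0.45).

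Adamtsl2, whose product binds latent TGF-beta binding protein 1, was at 11.8, 9.92, 10.5 and 10.2 in the control pools, 14.2, 18.8, 21.3 and 23.7 in the KO pools and 15.4, 10.7, 6.96 and 15.4 in anti-Ly6G pools. Every KO pool lay above every control pool (log2 0.83 ± 0.21, adjusted p = 0.07), and KO exceeded anti-Ly6G (log2 0.70 ± 0.21, adjusted p = 0.0268) with overlap at anti-Ly6G 1 and 4. The latter call was lost without KO 2, 3 or 4 (log2 0.71, 0.66 and 0.60) or anti-Ly6G 2 or 3 (0.67 and 0.47). Adamts10 was at 6.68, 7.46, 5.64 and 6.74 in the control pools, 6.95, 6.96, 7.41 and 8.95 in the KO pools and 9.61, 7.75, 7.96 and 8.24 in anti-Ly6G pools. Its rise in anti-Ly6G (log2 0.32 ± 0.11, adjusted p = 0.0458) was small, with no overlap of pools, and passed in 2 of the 12 fits that left out a library. It missed the threshold without control 1, 3 or 4 (log2 0.33, 0.25 and 0.33), without KO 1, 2 or 3 (0.32 each) and without any anti-Ly6G pool (0.26, 0.35, 0.34 and 0.33).

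Adamts7 was at 10.8, 10.7, 12.9 and 13.6 in the control pools, 11.6, 9.81, 10.9 and 11.2 in the KO pools and 13.3, 14.9, 14.2 and 15.1 in anti-Ly6G pools, the only member lower in KO than in anti-Ly6G (log2 -0.39 ± 0.09, adjusted p = 0.00953). That call was lost with libraries rescaled to equal totals (log2 -0.28, adjusted p = 0.0690) and with KO pools 3 and 4 alone (-0.36, adjusted p = 0.0558). The aggrecan-cleaving proteases Adamts1 and Adamts5 passed in no comparison. Adamts1 was at 10.1, 10.3, 12.5 and 12.4 in the control pools, 9.04, 9.81, 17.8 and 17.7 in the KO pools and 17, 13, 13.9 and 12.5 in anti-Ly6G pools. Its KO pools split into 2 low and 2 high values. Adamts5 was at 2.58, 2.10, 2.38 and 2.91 in the control pools, 2.76, 3.27, 2.66 and 4.26 in the KO pools and 2.78, 1.77, 2.43 and 1.62 in anti-Ly6G pools, with overlapping groups (log2 0.50 ± 0.18, adjusted p = 0.0541 in KO against anti-Ly6G). Among the others, Adamts13, the von Willebrand factor protease, ranged from 3.47 to 7.41 in KO pools and Adamts14, Adamts15, Adamts6 and Adamtsl4 stayed between 1.29 and 5.70 in all pools.

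The KO pools differed among themselves along the mitochondria label. In 22 members both NZB-labelled pools, KO 3 and 4, lay above both C57-labelled pools, KO 1 and 2, and in 11 both lay below. Over all genes these shares were 27.0% and 26.9%, against 34.9% and 17.5% of members. The families went opposite ways. No fibrillar collagen was higher in the NZB-labelled pools and 4 of 8 were lower, Col3a1 having a mean of 106.8 in KO 1 and 2 and of 70.4 in KO 3 and 4. Among basement membrane genes 8 of 16 were higher and 1 was lower, with Lamc3 at 1.2 and 3.75 and Lama5 at 4.05 and 6.64. Of the Adamts proteins 6 of 11 were higher and none lower, Adamts1 having means of 9.43 and 17.7. Of the glycoproteins and proteoglycans 4 of 8 were higher and none lower, with Dcn at 245.2 and 320.9. With 2 pools against 2 no test of this difference can reach the threshold by permutation, and none is given.

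Single pools also ranked alike across members. Control 4 was the highest control pool in 37 of 63 members (58.7%, against 29.7% of all genes) and control 1 the lowest in 31 (49.2%, against 30.2%). KO 1 was the lowest KO pool in 38 members (60.3%, against 24.4%), and KO 2 the highest in 28 (44.4%, against 26.8%). Anti-Ly6G 1 was the highest of its group in 27 (42.9%, against 24.3%). Leaving out control 4 raised the number of members called higher in KO than in control from 2 to 10, adding Col14a1, Col1a1, Col1a2, Col3a1, Col4a1, Mmp15, Mmp19 and Sparc. Control 4 was the highest control pool in each of these added members, so its omission raised their difference by construction. Without KO 4, Col13a1 and Timp3 were called lower in KO, and KO 4 was the highest KO pool in both. Counts over all genes for these 2 fits are not given here.

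Chains of the same collagen or laminin assemble together, so 8 ratios of partner chains per transcript length, chosen after their values were seen, are given as a description, with no test. Col4a1/Col4a2 was 1.64 ± 0.103 in the control pools, 2.07 ± 0.142 in the KO pools and 1.93 ± 0.276 in anti-Ly6G pools (SD, n = 4). All 4 KO ratios exceeded all 4 control ratios (log2 difference 0.33). Col6a3/Col6a1 was 0.283 ± 0.0281 in the control pools, 0.362 ± 0.0248 in the KO pools and 0.281 ± 0.0499 in anti-Ly6G pools, and all KO ratios exceeded all others (log2 differences 0.36 and 0.38). Col1a1/Col1a2 had a mean log2 difference of 0.55 for KO minus anti-Ly6G, and Col5a1/Col5a2 of -0.62. The ratio Col3a1/Col1a2 stayed close, with means of 1.73, 1.78 and 1.81 in control, KO and anti-Ly6G pools.

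**Figure D4:**
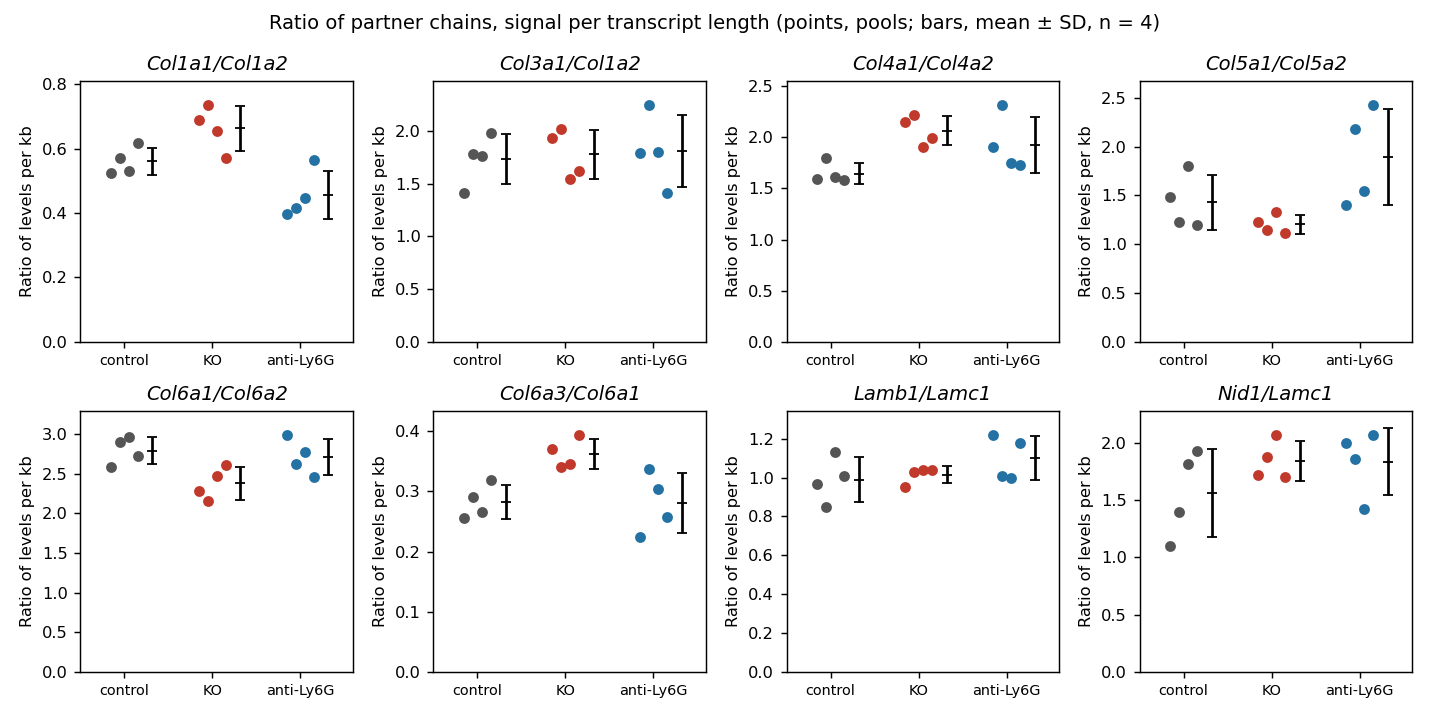
Ratios of partner chains (vertical axes, ratio of levels per kilobase of transcript, starting at 0) in each pool (points), by group, with bars for the mean ± SD (n = 4). The KO points of Col4a1/Col4a2 lie between 1.91 and 2.22, above the control points at 1.58 to 1.80.

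Genes that act on the same matrix were read from lists that hold no members. Among 19 genes of collagen processing, 4 rose and 2 fell in anti-Ly6G against control (median log2 0.05). The 2 that fell were Plod1, a lysyl hydroxylase (log2 -0.95 ± 0.10, adjusted p = 2.21e-05), and Serpinh1, the collagen chaperone Hsp47 (log2 -0.49 ± 0.14, adjusted p = 0.0199). The 4 that rose were Fkbp14, P4ha1, Pepd and Sec23a (log2 0.55, 0.38, 0.34 and 0.30), which fold, hydroxylate, recycle and export collagen. In KO against anti-Ly6G 5 of the 19 were higher (13.6% of all genes) and 1 lower (13.1% of all genes). Of those higher, Crtap and Fkbp10 did not pass in every fit that left out 1 library. The shares in anti-Ly6G against control were 21.1% higher and 10.5% lower, against 15.1% and 15.3% of all genes. Serpinh1 did not pass without control 2, control 4 or anti-Ly6G 4 (log2 -0.44, -0.43 and -0.40), P4ha1 without control 1, 2 or 3 or anti-Ly6G 1 or 2 (0.36, 0.36, 0.32, 0.31 and 0.38), and Sec23a without control 2 or 4 or anti-Ly6G 1 or 3 (0.25, 0.28, 0.26 and 0.26).

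Of 22 genes of transforming growth factor beta signalling, which induces collagen genes in stellate cells, 9 fell and none rose in anti-Ly6G against control (median log2 -0.24). These shares were 40.9% and 0%, against 15.3% and 15.1% of all genes. Tgfbr2, the type II receptor, fell by 1.06 on the log2 scale (adjusted p = 1.67e-05), with pools from 17.4 to 20.1 against 33.6 to 45.7 in control. Tgfb1, the ligand, changed by log2 -0.90 ± 0.15, adjusted p = 0.000766, and its activator Thbs1 by log2 -0.83 ± 0.21, adjusted p = 0.00952. Those that fell also included Ltbp3, Lrrc32, Ltbp4, Ski and Tgfbi, of which Ski lost its call when control 2, 3 or 4 or anti-Ly6G 1 or 2 was left out (log2 -0.34, -0.35, -0.39, -0.32 and -0.27). KO against anti-Ly6G gave 9 higher (13.6% of all genes) and 1 lower (13.1% of all genes). The lower gene, Smad7, did not pass without KO 1 or 4 or anti-Ly6G 3 or 4 (log2 -0.48, -0.64, -0.42 and -0.62).

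Matrix receptors gave fewer calls. Of 19, 5 fell in anti-Ly6G against control (Sdc3, Cd44, Sdc1, Dag1 and Itga9, log2 -0.71 to -0.39) and Itga3 rose (0.38). That is 26.3% lower and 5.26% higher, against 15.3% and 15.1% of all genes. Cd44 did not pass when control 2 or 4 or anti-Ly6G 2, 3 or 4 was left out (log2 -0.58, -0.48, -0.64, -0.54 and -0.62), nor Itga9 without control 4 or anti-Ly6G 4 (-0.32 and -0.34). Itga3 passed only when control 1 or a KO pool was the one left out, and was 0.34 to 0.41 in the other 7 fits. The plasmin system and cysteine cathepsins, which degrade fibrin and matrix, had 8 of 12 lower and 1 higher (median log2 -0.65). These shares were 66.7% and 8.33%, against 15.3% and 15.1% of all genes. Of those lower, Plau was lost without control 3 or 4 or anti-Ly6G 1, 2 or 4 (log2 -0.78, -0.47, -0.74, -0.75 and -0.69). Reck was lost without control 1, 3 or 4, anti-Ly6G 1 or 3 or KO 3 (log2 -0.46, -0.43, -0.52, -0.42, -0.50 and -0.52). Plaur, the urokinase receptor, changed by log2 -1.28 ± 0.18, adjusted p = 0.000268, and Ctsk, the collagen-cleaving cathepsin K, by log2 -1.1 ± 0.24, adjusted p = 0.00415. In KO against anti-Ly6G 8 receptors and 7 of the 12 proteases and inhibitors were higher (13.6% of all genes) and none was lower (13.1% of all genes). Of these receptors, Ddr2, Itgav, Mrc2 and Sdc1 did not pass in every fit that left out 1 library. No gene of these 4 lists passed in KO against control, where 1.12% of all genes did.

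Markers of the cells that make matrix were read beside the members. Of 15 markers of stellate cells and myofibroblasts, 5 fell in anti-Ly6G against control (15.3% of all genes). The summed signal of the 15 was 303.1 to 343.9, below the control range of 386.5 to 412.9 and against 370.8 to 480.4 in KO. Ecm1 held 26.7% of this sum and did not itself pass (log2 -0.36 ± 0.13, adjusted p = 0.0597). Of the 15 fitted values in anti-Ly6G against control, 12 were below 0 and 3 above. Pdgfrb, the receptor for platelet-derived growth factor, fell (log2 -0.55 ± 0.12, adjusted p = 0.00365), whereas Lrat, the enzyme that stores retinoid in quiescent stellate cells, did not pass (log2 0.22 ± 0.13, adjusted p = 0.215). Acta2, the smooth muscle actin of myofibroblasts, did not pass either (log2 -0.77 ± 0.31, adjusted p = 0.0724), with control 1 at 6.37 and the other control pools between 1.60 and 2.44. Tagln rose in KO (log2 0.60 ± 0.11, adjusted p = 0.0276) and 36.5% of its 25-mers are unique. That call did not pass without control 2 or 3 (log2 0.58 and 0.54) or KO 2 or 3 (0.52 and 0.60). The fall of Tagln in anti-Ly6G (log2 -0.35 ± 0.11, adjusted p = 0.0247) was lost without control 1 or 4 or anti-Ly6G 1 or 3 (-0.32, -0.32, -0.33 and -0.32). Of 5 portal fibroblast markers 2 fell in anti-Ly6G (15.3% of all genes), namely Eln and Entpd2. The sum of the 5 did not fall, at 45.3 to 57.4 in anti-Ly6G pools against 42.7 to 51.1 in control. Eln was lost without control 1, 3 or 4 (log2 -0.45, -0.54 and -0.44) or anti-Ly6G 1 or 3 (-0.51 and -0.42), and Entpd2 without control 2 (-0.46).

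Macrophage markers had the widest range. Of 12, 7 fell in anti-Ly6G against control (15.3% of all genes) and 10 were higher in KO than in anti-Ly6G (median log2 1.61, 13.6% of all genes). Their summed signal was 388.9, 431.8, 507.4 and 762.7 in control pools, 867.9, 913.2, 573.7 and 685.2 in the KO pools and 254.0, 215.9, 281.8 and 202.0 in anti-Ly6G pools. The summed fibrillar collagens were 100.7, 152.4, 121.1 and 211.1 in control pools, 221.8, 282.9, 200.3 and 177.8 in the KO pools and 68.7, 64.3, 57.2 and 70.6 in anti-Ly6G pools. In both sums control 4 was the highest control pool, KO 2 the highest of all pools, and all anti-Ly6G pools were lowest. The same held for the sums of the neutrophil markers, the other collagens and the crosslinking enzymes. It did not hold for the stellate cell and myofibroblast sum, where KO 4 was the highest of all pools (480.4). Other sums that broke it were basement membrane (highest in control 1, 1147.1), glycoproteins and proteoglycans (control 2, 1842.9) and Kupffer cell markers (KO 3, 450.7). The order of KO 3 and KO 4 differed between the macrophage and fibrillar collagen sums, KO 4 being higher in the former and KO 3 in the latter. Neutrophil markers had 4 of 5 lower in anti-Ly6G (15.3% of all genes), with a sum of 7.11 to 12.8 against 16.4 to 30.2 in control and 26.5 to 30.7 in KO. Csf3r was lost without control 2 or 4 or anti-Ly6G 2 or 4 (log2 -0.53, -0.47, -0.50 and -0.50). S100a8 and S100a9 fell (log2 -1.35 ± 0.18, adjusted p = 0.000157 and log2 -1.58 ± 0.22, adjusted p = 0.000244). No gene of any marker list was at 0 in any pool. The part that these cells have in the collagen differences was not tested.

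Markers of other liver cells were read in the same way. Of 10 sinusoidal endothelial markers 3 fell in anti-Ly6G (15.3% of all genes). Kdr, 1 of them, did not pass without any control pool, without anti-Ly6G 1, 2 or 4 or without KO 3 (log2 -0.56 to -0.44). The sum of the 10 markers was 160.9, 187.7, 212.0 and 284.8 in KO pools 1 to 4, against 244.4 to 283.0 in control and 201.8 to 235.7 in anti-Ly6G pools. KO 1 and KO 2 both lay below KO 3 and KO 4 in 22 members (34.9%), among them Lama5, Lamc3, Timp3 and Col13a1, against 27.0% of all genes. Whether the markers and these members are linked was not tested. Of 4 bile duct markers 2 fell in anti-Ly6G (15.3% of all genes), Sox9 and Spp1. Spp1, which is also counted among the macrophage markers, did not pass without control 4 or anti-Ly6G 4 (log2 -0.47 and -0.50). Of 5 Kupffer cell markers 2 fell in anti-Ly6G (15.3% of all genes), Marco and Cd5l, while Clec4f did not pass (log2 0.15 ± 0.16, adjusted p = 0.497). Cd5l was lost without control 2 or 4 (log2 -0.53 and -0.51) or anti-Ly6G 2 or 4 (-0.46 and -0.49). Of 10 hepatocyte markers 1 fell in anti-Ly6G, Cps1, a share of 10.0% against 15.3% of all genes.

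**Figure D5:**
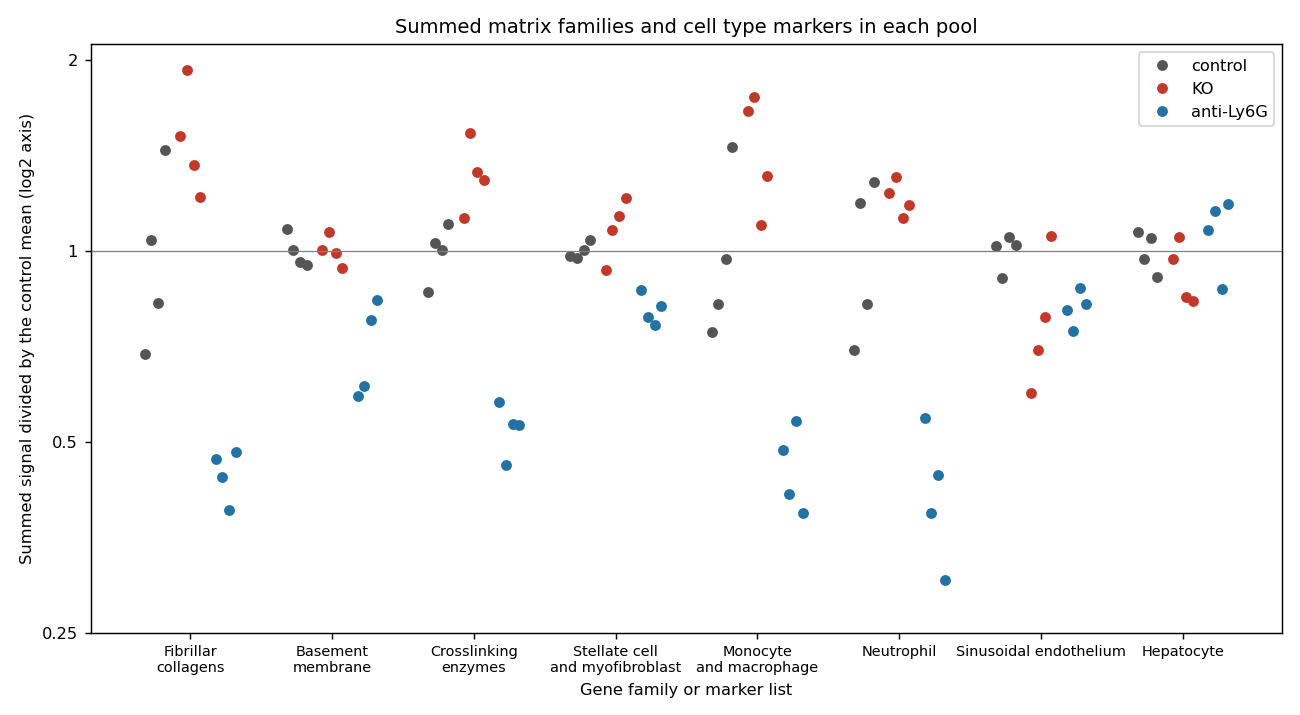
Summed signal of 3 matrix families and 5 marker lists in each pool (points), divided by the mean of the control pools (vertical axis, log2 scale), for control, KO and anti-Ly6G. Anti-Ly6G points lie below all control points in 7 of the 8 sums and overlap them for the hepatocyte markers.

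By summed level, the 63 members made up 0.307% to 0.353% of all signal in control pools, 0.321% to 0.369% in KO pools and 0.188% to 0.269% in anti-Ly6G pools. Per transcript length in control livers, the order of the highest members was Fn1 (152.5 per kb), Col18a1 (148.0), Dcn (55.9), Bgn (46.9), Sparc (25.5) and Mmp14 (21.9), and the lowest were Col11a2 (0.197), Col12a1 (0.210) and Adamts5 (0.231). Among neighbours in this order, the pool ranges of Fn1 and Col18a1, of Dcn and Bgn, and of Sparc and Mmp14 overlapped, and those of Col18a1 and Dcn and of Bgn and Sparc did not. The highest fibrillar collagens were Col3a1 at 10.4 per kb and Col1a2 at 5.8.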

How the data were processed

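The authors deposited 1 signal value per gene and library for 12 liver libraries (Illumina GAIIx). The submitters' processing notes name edgeR, Bowtie2 2.0.6, RSEM 1.2.3, cutadapt 1.2.1 and the build GRCm38, and the role of each is not given in the sources used here. All deposited values were whole multiples of 1 read within 0.01 reads, which makes the deposited signal a scaled read count. Reads were recovered by dividing by the value of 1 read. The members and all gene lists were chosen with earlier results of these data known.

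Group differences were fitted with limma-trend (limma 3.58.1, R 4.3.3) on log2(signal + 0.5) over all 11791 genes and 12 libraries, with group as the only term, two-sided, with Benjamini-Hochberg adjustment at 0.05. The log2 scale understates changes of low genes. No filter beyond the deposited table was applied. Alternatives were pseudocounts of 0.1 and 1, a mean of at least 5, equal library totals, edgeR 4.0.16 and DESeq2 1.42.0 on recovered reads, a replicate block, the mitochondria label as a covariate, only the 2 groups compared, KO pools 1 and 2 or 3 and 4 alone, and leaving out each library. The fit was tested on simulated data.

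Every pool's value is given for members of the collagen, basement membrane and enzyme families that the rule for named genes listed, and other members by range or fold change. From each other list the 3 genes of lowest p per comparison with control were taken, and further genes were named after their values were seen. Coordinates are from GENCODE vM21 (GRCm38), in which all 63 members were found by identifier. A 25-mer of a gene counts as unique if no other annotated gene holds it, and 58 members had at least 90% unique 25-mers.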

Additional observations from a re-analysis of the deposited data

Results flagged for a closer look

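In each group of 4 pools, the highest and lowest value of each member was compared with its nearest neighbour as a share of the group's range. Of 189 groups tested, 8 had a pool whose gap exceeded Dixon's 95% critical value for 4 samples, and chance alone gives about 1 in 20 groups. In KO 2, Adamts2 was at 13.8 with the nearest pool at 11.7, Col5a2 at 10.7 with the nearest at 8.66, and Sparc at 88.0 with the nearest at 69.0. In the anti-Ly6G group, Col27a1 was low in pool 3 (1.91, nearest 4.28), Lama2 was high in pool 1 (3.41, nearest 1.82) and Timp1 was high in pool 4 (1.37, nearest 0.862). In control, Lamc3 was high in pool 1 (2.96, nearest 2.31) and Mmp15 in pool 4 (21.4, nearest 15). The 3 high values of KO 2 fall in the pool that was the highest KO pool in 28 of the 63 members.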

How the results depend on the processing

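No call among the members changed sign in any fit. Against the main counts of 2 higher and 0 lower in KO against control, the members higher were 14 with DESeq2, 0 with the replicate block, 0 with the mitochondria covariate, 1 with only the 2 groups compared and 0 with KO pools 1 and 2 alone, and 2 were lower (Col13a1 and Timp3) with the covariate and with KO pools 1 and 2 alone. Over all genes, 268 were higher in KO against control with DESeq2 and 25 with the covariate, against 69 in the main fit. In anti-Ly6G against control, 2 members were higher with equal totals and 1 with the covariate, and 10 were lower with the covariate. In KO against anti-Ly6G, 2 were lower with a pseudocount of 1 and with DESeq2, and 0 with equal totals. Leaving out each library in turn gave 0 to 10 higher and 0 to 2 lower in KO against control, 2 to 4 higher and 30 to 35 lower in anti-Ly6G against control, and 35 to 41 higher and 1 to 3 lower in KO against anti-Ly6G. Same-numbered pools did not deviate together (r from -0.21 to 0.17 over 12 pairs, 4 of them over 0.1), so replicate numbers were not taken to pair the pools. The replicate block lost both calls of KO against control, Adamts10 of anti-Ly6G against control and Col18a1 of KO against anti-Ly6G.

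Signs turned only in values that had passed no test. With the covariate, and equally with KO pools 1 and 2 alone, KO against control gave Adamts1 -0.25, Adamts13 -0.25, Col18a1 0.01, Dcn -0.10, Lama4 -0.09, Lamb1 -0.01, Lamb2 -0.11, Lamc1 -0.01 and Loxl3 -0.06 (log2, as below). The covariate in anti-Ly6G against control gave Adamts1 -0.58, Adamts13 -0.52, Adamtsl2 -0.32, Lama4 -0.30, Mmp19 0.03 and Mmp23 0.13. With it, or with KO pools 3 and 4 alone, KO against anti-Ly6G gave Adamts1 0.33, Adamts13 0.27, Adamtsl4 0.08, Col13a1 0.12, Lama4 0.21, Lamb3 0.23 and Timp3 0.06. Equal totals gave Adamts6 0.02, Hspg2 0.01 and Mmp14 0.07 in KO against control, and Adamtsl4 0.02, Lama4 0.04 and Lamb3 0.06 in KO against anti-Ly6G. On whole reads, Adamts6 was -0.01 in KO against anti-Ly6G with edgeR and DESeq2, Lamc3 was 0.03 and 0.02 in KO against control, and Lama4 was 0.01 in KO against anti-Ly6G with DESeq2. The cause was not tested.

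Leaving out a library gave these ranges. In KO against control they were Adamts13 -0.01 to 0.32, Adamts15 -0.27 to 0.10, Adamts6 -0.17 to 0.08, Col27a1 -0.06 to 0.08, Hspg2 -0.17 to 0.04, Lamc3 -0.50 to 0.11, Mmp14 -0.04 to 0.03 and, of the marker genes, Marco -0.01 to 0.30 and S100a9 -0.06 to 0.35. In anti-Ly6G against control they were Adamts6 -0.23 to 0.07, Adamtsl2 -0.01 to 0.36, Adamtsl4 -0.11 to 0.09 and Fbln5 -0.27 to 0.11. In KO against anti-Ly6G they were Adamts1 -0.26 to 0.05, Adamts13 -0.31 to 0.02, Adamts6 -0.09 to 0.20, Adamtsl4 -0.18 to 0.02, Lama4 -0.20 to 0.18, Lamb3 -0.24 to 0.22 and Postn -0.06 to 0.35. Log2 ratios of Col3a1/Col1a2 ranged from -0.06 to 0.11, -0.06 to 0.17 and -0.13 to 0.10 in the 3 comparisons, Col6a3/Col6a1 from -0.12 to 0.08 in anti-Ly6G against control, Lamb1/Lamc1 from -0.03 to 0.11 in KO against control and Nid1/Lamc1 from -0.11 to 0.07 in KO against anti-Ly6G. The leave-one-out ratios were added after seeing the data.

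Depth limits the low members. A signal of 0.125 to 0.242 stands for 3 reads, so Mmp13 and Loxl4 in the anti-Ly6G pools rest on few reads.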
